A study of Mus musculus with 13 samples.

Results

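The MHC class I and peptide loading genes are 10 genes of 52550 in the count table, chosen by name with earlier results of these data known. They comprise the heavy chains H2-K1, H2-D1, H2-T23, H2-Q4 and H2-Q7, the light chain B2m, the peptide transporter genes Tap1 and Tap2, the loading factor Tapbp, and the transcriptional regulator Nlrc5. All 10 were found by their Ensembl gene ID and all 10 passed the low-count filter. The counts came from 13 bulk RNA-seq libraries of mouse retinal cells sorted for Thy1.2, a surface protein used to enrich retinal ganglion cells (RGCs), in 2 datasets. In the knockout dataset, Kdm6a (UTX, a histone H3K27 demethylase) f/f mice received an intravitreal injection of AAV2-Cre (2 libraries) or AAV2-GFP (3 libraries), an AAV serotype that mainly reaches RGCs, and were labelled P42 (genotype UTX knockout or GFP) with an optic nerve crush. Cells of these injured adults were taken 3 days after the crush. The floxed allele, the AAV2 serotype, the crush and the adult age are shared by both arms, while the virus cargo (Cre or GFP) differs. In the development dataset, WT mice, for which no virus or crush is listed, were sampled at P1 (3 libraries), P14 (3 libraries) and P21 (2 libraries). The strain of the libraries' mice and whether a library held 1 animal or a pool are not given in the sources used here, so p-values measure the spread between these libraries.

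MHC class I molecules carry short peptides from the cell's own proteins to its surface, where CD8 T cells and natural killer cells read them. A heavy chain pairs with the light chain β2-microglobulin in the endoplasmic reticulum, peptides cut by the proteasome enter through the TAP transporter, and tapasin holds the empty molecule at the transporter until a peptide is bound. Interferon raises this set of genes as a group, and NLRC5 acts at class I promoters through an element known as the SXY module. In the brain and retina the level in healthy neurons is low, and neuronal class I molecules are known for roles in synapse removal during development.

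The promoters of the heavy chain genes and of B2m are shown because 4 of them share a closely spaced pair of short motifs, although these 4 genes differed in direction during development. RefSeq start sites on GRCm38.p6 were given for 8 of the 10 genes, all but Tap2 and Nlrc5. The 150 bases before the first listed start site are printed 5′ to 3′ on the gene's own strand, with capitals on matches to TGACG (the core of a CRE, bound by CREB/ATF), CCAAT and GAAANNGAAA (an interferon regulatory factor motif), each searched on both strands. They lie at chr17:34000348-34000497 (minus strand) for H2-K1, chr17:35262944-35263093 (plus) for H2-D1, chr17:35439005-35439154 (plus) for H2-Q7, chr2:122147537-122147686 (plus) for B2m, chr17:35379467-35379616 (plus) for H2-Q4 and chr17:36032702-36032851 (minus) for H2-T23.
H2-K1: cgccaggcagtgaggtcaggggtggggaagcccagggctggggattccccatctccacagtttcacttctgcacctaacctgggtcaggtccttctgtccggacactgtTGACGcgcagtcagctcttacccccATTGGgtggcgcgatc
H2-D1: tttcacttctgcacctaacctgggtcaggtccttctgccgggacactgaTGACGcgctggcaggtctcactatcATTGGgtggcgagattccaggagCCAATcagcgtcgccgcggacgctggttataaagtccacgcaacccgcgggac
H2-Q7: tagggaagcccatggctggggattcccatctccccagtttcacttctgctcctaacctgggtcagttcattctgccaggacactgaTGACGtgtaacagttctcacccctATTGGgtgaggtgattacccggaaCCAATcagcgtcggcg
B2m: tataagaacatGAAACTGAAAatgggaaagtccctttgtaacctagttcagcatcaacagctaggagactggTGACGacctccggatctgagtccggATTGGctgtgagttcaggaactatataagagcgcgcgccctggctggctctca
H2-Q4: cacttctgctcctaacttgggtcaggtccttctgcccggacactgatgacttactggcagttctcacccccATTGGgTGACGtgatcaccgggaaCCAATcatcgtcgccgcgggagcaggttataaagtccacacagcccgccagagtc
H2-T23: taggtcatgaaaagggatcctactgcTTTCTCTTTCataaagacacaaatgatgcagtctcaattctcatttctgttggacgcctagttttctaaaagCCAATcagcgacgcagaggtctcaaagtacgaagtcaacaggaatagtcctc

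In 250 bases before to 50 after the start site, CCAAT was found in 8 of 8 member genes, against 41.1% of 27025 genes with a promoter in the table. TGACG was found in 6 of 8 (all but H2-T23 and Tapbp), against 23% of all genes. GAAANNGAAA was found in 2 of 8, H2-T23 and B2m, against 3.99% of all genes. Other forms of interferon element were not searched for, so a gene without this match may still hold one. In H2-K1, H2-D1, H2-Q7 and B2m, TGACG was followed by ATTGG, the CCAAT motif on the other strand, with starts 24 to 25 bases apart. This spacing was looked for after the sequences had been read, and it occurred in 38 of the 27025 genes (0.141%). The capitals in H2-Q4 have ATTGG ahead of TGACG. Ahead of both stands tgact, which differs from TGACG in its last letter and so was not marked. These matches describe letters in a window and do not show binding.

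All members but B2m and Nlrc5 lie on mouse chromosome 17, at positions given here on GRCm38 from GENCODE M21. H2-K1 is at chr17:33996017-34000347, H2-D1 at chr17:35262730-35267499, H2-T23 at chr17:36029773-36032855, H2-Q4 at chr17:35379617-35385290 and H2-Q7 at chr17:35439155-35443773. Tap1 is at chr17:34187553-34197225, Tap2 at chr17:34203527-34216321 and Tapbp at chr17:33915899-33929292. B2m is at chr2:122147686-122153083 and Nlrc5 at chr8:94434356-94527272. Each value is a count over all exons of the gene. Class I paralogs resemble each other, and 6.87% of the 150-base windows of the longest H2-Q7 transcript, 1.79% of those of H2-D1 and 0.441% of those of H2-T23 occurred unchanged in another gene, against none for the other 7 genes. Exons of Tapbp overlapped other genes over 29% of their length, those of H2-Q4 over 19.1%, those of Tap2 over 18.5% and those of Tap1 over 3.87%, the last shared with Psmb9. How shared, overlapping and antisense reads were counted is not given in the sources used here, so values of these genes are uncertain to that extent.

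Library totals ran from 13637602 to 16070720 counts in the knockout dataset and from 30357454 to 38812917 in the development dataset. Kdm6a had 108 and 111 CPM (a gene’s counts relative to the library total after TMM scaling) in AAV2-Cre libraries, against 111, 96.2 and 117 CPM in AAV2-GFP libraries. The floxed part is exon 3 alone, so a count over the whole gene does not check the deletion. The RGC label held at P1, where Pou4f2, an RGC transcription factor, averaged 255 CPM, against 12.2 CPM at P14 and 6.41 CPM at P21. Pou4f2 was at 0 counts in both AAV2-Cre libraries, which allows up to 0.216 CPM, and between 0 and 0.139 CPM in AAV2-GFP libraries. The microglial marker Cx3cr1 averaged 1077 CPM in AAV2-Cre and 921 CPM in AAV2-GFP libraries. All 13 RGC markers together took 0.0319% to 0.0373% of counts in AAV2-Cre and 0.0340% to 0.0407% in AAV2-GFP libraries. Their share was 0.861% to 0.949% at P1, 0.122% to 0.139% at P14 and 0.0382% to 0.0736% at P21. The injured adult, P14 and P21 libraries are therefore called by their labels and not taken as RGC profiles. In such bulk libraries, fewer cells of a type and less RNA per cell cannot be told apart.

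The plot of levels by library shows the 10 genes over all 5 groups. Per kb of exon, a scale that allows for gene length, B2m was highest of the 10 in every group mean, with 1696 CPM per kb in AAV2-Cre, 818 in AAV2-GFP, 21.2 at P1, 79.6 at P14 and 66.8 at P21. At P1 H2-D1 was close behind at 20.4 CPM per kb, and in P1 replicate 1 both stood at 20.7. Length here counts every exon base of a gene. The longest H2-D1 transcript is shorter (2102 against 2579 bases), so the order at P1 depends on the length used. The lowest level per kb belonged to H2-Q4 in AAV2-Cre (2.43 CPM per kb) and AAV2-GFP (1.26), to Nlrc5 at P1 (0.135) and P14 (0.283), and to H2-Q7 at P21 (0.356). Together the 10 genes took 0.641% to 0.646% of all counts in AAV2-Cre libraries and 0.265% to 0.394% in AAV2-GFP libraries. Their share was 0.0118% to 0.0139% at P1, 0.0345% to 0.0371% at P14 and 0.0404% to 0.0410% at P21. With the 100 genes with the most counts left out of each library, the members kept 0.145% to 0.165% of the rest in AAV2-Cre and 0.162% to 0.323% in AAV2-GFP libraries. That step removed members themselves, with H2-K1, H2-D1 and B2m left out of both AAV2-Cre libraries.

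**Figure D1:**
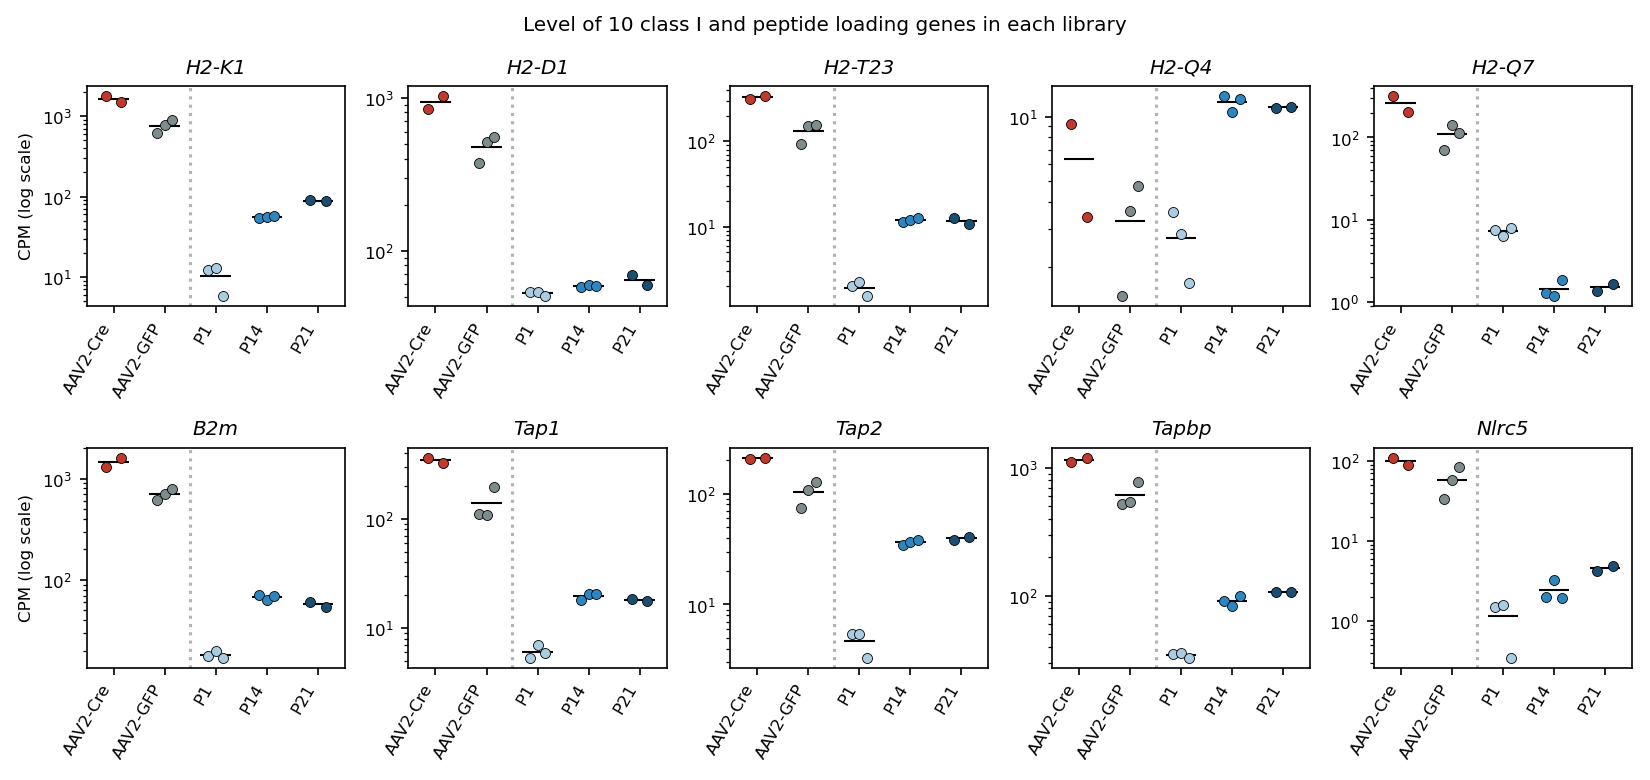
Level of each of the 10 genes in each of 13 libraries, in CPM on a log scale. Points are libraries, bars are group means, and the dotted line separates the knockout dataset (AAV2-Cre, AAV2-GFP) from the development dataset (P1, P14, P21). Both AAV2-Cre libraries lay above all 3 AAV2-GFP libraries for every gene but H2-Q4.

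The comparison of AAV2-Cre with AAV2-GFP asked which of these genes differed between the arms in injured adults. The virus cargo and the Kdm6a deletion differ together, so they cannot be told apart. All 10 genes had a fold change above 1, and 3 were called higher (H2-K1, H2-T23 and B2m), 2.01- to 2.39-fold. A gene was called at an adjusted p under 0.05 in edgeR's quasi-likelihood test, with Benjamini-Hochberg adjustment over all 18395 genes tested. Of those genes 1.33% were called higher and 0.294% lower. No member was called lower by edgeR, DESeq2 or limma-voom, and none had a fold change below 1. The median log2 fold change of the 10 was 0.99, against -0.03 over all genes tested, and 8 of 10 had an unadjusted p under 0.05. Both AAV2-Cre libraries lay above every AAV2-GFP library in 9 of 10 genes, while 19.8% of all genes tested did so. Because the genes were chosen with earlier results of these data known, shares set beside all genes here and below describe them and are not a test.

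Among the classical heavy chains, which present peptides to CD8 T cells, H2-K1 had 1782.5 and 1494 CPM in AAV2-Cre libraries, against 616, 782 and 887 CPM in AAV2-GFP libraries. The groups did not overlap, and its log2 fold change was 1.06 ± 0.18 (SE; adjusted p = 0.032, edgeR). H2-D1 had 839 and 1025 CPM in AAV2-Cre libraries, against 375, 509 and 551 CPM in AAV2-GFP libraries. It did not overlap either, yet its log2 fold change of 0.92 ± 0.19 missed the call (adjusted p = 0.0552, edgeR).

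The nonclassical heavy chains differed in how tightly their libraries grouped. H2-T23, the gene of Qa-1, a ligand of the natural killer receptor CD94/NKG2A, had 317 and 340.4 CPM in AAV2-Cre libraries, against 93.9, 152 and 154 CPM in AAV2-GFP libraries. It was called higher, with a log2 fold change of 1.26 ± 0.22 (adjusted p = 0.0324, edgeR). H2-Q7, a gene of the Qa-2 antigen, had 318 and 205 CPM in AAV2-Cre libraries, against 70.1, 143 and 114 CPM in AAV2-GFP libraries (log2 fold change 1.22 ± 0.30, adjusted p = 0.086, edgeR). H2-Q4 was low and scattered, with 9.22 and 3.42 CPM in AAV2-Cre libraries, against 1.46, 3.61 and 4.75 CPM in AAV2-GFP libraries. Its groups overlapped, and its log2 fold change of 0.90 had a 95% interval of -0.48 to 2.29 (adjusted p = 0.52, edgeR).

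B2m, the light chain of every one of these molecules, had 1299 and 1617 CPM in AAV2-Cre libraries, against 609, 704 and 798 CPM in AAV2-GFP libraries. It was called higher, with a log2 fold change of 1.01 ± 0.17 (adjusted p = 0.0279, edgeR). The 3 transport and loading genes were 1.84 to 2.41 times the AAV2-GFP level in AAV2-Cre. None was called by edgeR, all 3 had an unadjusted p under 0.05, and DESeq2 and limma-voom each called all 3 higher. Over all 18395 genes, DESeq2 called 798 higher and limma-voom 360. Tap1, a subunit of the peptide transporter, had 364 and 321 CPM in AAV2-Cre libraries, against 110.4, 107 and 197 CPM in AAV2-GFP libraries (log2 fold change 1.27 ± 0.26, adjusted p = 0.0524, edgeR). Tap2, the other subunit, had 206 and 212 CPM in AAV2-Cre libraries, against 74.7, 107 and 127 CPM in AAV2-GFP libraries (0.98 ± 0.22 on the log2 scale, adjusted p = 0.0651). Tapbp, which encodes tapasin, had 1108 and 1206 CPM in AAV2-Cre libraries, against 519.8, 543 and 774 CPM in AAV2-GFP libraries (0.88 ± 0.19 on the log2 scale, adjusted p = 0.0626). None of these 3 genes overlapped between the arms. Nlrc5, the class I transactivator, had 110.1 and 87.8 CPM in AAV2-Cre libraries, against 33.7, 57.2 and 84.25 CPM in AAV2-GFP libraries. Its lowest AAV2-Cre and highest AAV2-GFP libraries were close, and its log2 fold change of 0.72 was not called (95% interval -0.02 to 1.46, adjusted p = 0.317, edgeR).

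**Figure D2:**
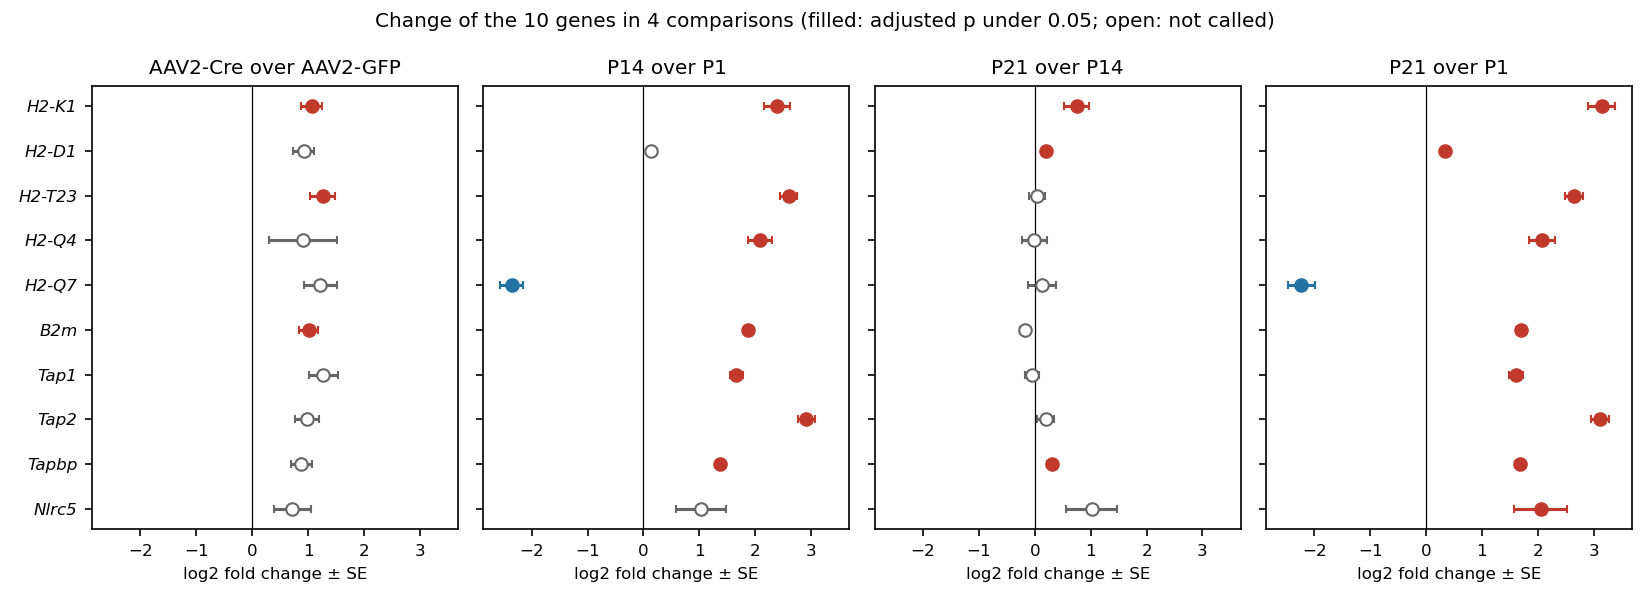
Log2 fold change of the 10 genes in 4 comparisons with its standard error, from edgeR. Filled points had an adjusted p under 0.05 (red higher, blue lower) and open points were not called. AAV2-Cre over AAV2-GFP placed all 10 genes between 0.72 and 1.27, while P14 over P1 placed H2-Q7 at -2.36 and H2-D1 at 0.13, apart from the other 8.

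The number of calls in the AAV2-Cre comparison depended on single libraries and on the tool, while the sign did not. All 10 genes stayed above 0 in the main fit and in 13 alternatives. DESeq2 called 8 of the 10 higher and limma-voom 7, where they called 798 and 360 of all 18395 genes higher. Without AAV2-Cre replicate 1, AAV2-Cre replicate 2 or AAV2-GFP replicate 2 no member was called, with 8 of 10 at an unadjusted p under 0.05 each time. Without AAV2-GFP replicate 1 edgeR called 1 member, and without AAV2-GFP replicate 3 it called 6. Markers of other cells moved in the same comparison. T and NK cell markers (13 genes) took 0.0824% to 0.128% of counts in AAV2-Cre and 0.0363% to 0.0665% in AAV2-GFP libraries. All 13 had a fold change above 1 and a median log2 fold change of 1.01, 12 had an unadjusted p under 0.05, and edgeR called 0, DESeq2 9 and limma-voom 1. B cell markers (8 genes) took 0.0284% to 0.0329% in AAV2-Cre and 0.0130% to 0.0167% in AAV2-GFP libraries, with 2 called higher and a median of 0.93. Class II genes (6) had a median of 0.65 and microglial markers (12) of 0.28, with 0 called in either list by edgeR, 4 and 3 of them at an unadjusted p under 0.05, and 3 and 1 called higher by DESeq2 and 0 by limma-voom. Rod markers (10 genes) had a median of -0.65, with 0 called by edgeR, 4 at an unadjusted p under 0.05, 1 called lower by DESeq2 and 0 by limma-voom, and their share was 1.23% to 2.65% in AAV2-Cre and 2.75% to 3.22% in AAV2-GFP libraries. Of 11 RGC markers tested, edgeR, DESeq2 and limma-voom each called 1 lower and 0 higher, with a median of 0.32 and 2 at an unadjusted p under 0.05. The marker called by edgeR was Isl1, at -1.27 (adjusted p = 0.0216, edgeR). Thy1, the gene of the sorting marker, was at 0.65 (adjusted p = 0.224, edgeR). Müller glia markers (8 genes) had a median of 0.21, with 0 called by edgeR and 1 called higher by DESeq2 and by limma-voom. The part of these cells in the class I values was not tested.

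In development the class I genes changed mainly between P1 and P14. At P14, 7 of 10 were called higher than at P1 (H2-K1, H2-T23, H2-Q4, B2m, Tap1, Tap2 and Tapbp), 2.58- to 7.54-fold, and H2-Q7 was lower, 5.12-fold. H2-D1 and Nlrc5 were not called by edgeR, while DESeq2 and limma-voom each called 8 members higher, with Nlrc5 among them, and H2-Q7 lower. Of 20890 genes tested, 33.6% were called higher and 33.6% lower at P14. The median log2 fold change of the 10 was 1.77, against -0.01 over all genes. At P21, 9 of 10 were called higher than at P1 and H2-Q7 lower, a comparison that shares its P1 libraries with the first and in which 34.1% of all genes were higher and 33.6% lower. Between P14 and P21 fewer moved, with 3 of 10 called higher at P21 than at P14 (H2-K1, H2-D1 and Tapbp) and 0 called lower, against 14.6% and 19.3% of all genes. DESeq2 and limma-voom also called 0 lower, and none of the 4 members with an unadjusted p under 0.05 was lower.

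The classical heavy chains followed different courses. H2-K1 had 12.3, 13.1 and 5.78 CPM at P1, 54.3, 55.6 and 57.0 CPM at P14, and 90.3 and 87.8 CPM at P21. The 3 stages did not overlap, and its log2 fold change was 2.39 ± 0.23 for P14 over P1 (adjusted p = 7.56e-06, edgeR) and 0.75 ± 0.23 for P21 over P14 (adjusted p = 0.0287). H2-D1 was nearly level, with 53.5, 53.7 and 50.3 CPM at P1, 58.1, 59.2 and 58.9 CPM at P14, and 68.9 and 59.9 CPM at P21. Its log2 fold change was 0.13 ± 0.06 for P14 over P1 (adjusted p = 0.0712, edgeR), 0.21 ± 0.06 for P21 over P14 (adjusted p = 0.0337) and 0.34 ± 0.06 for P21 over P1 (adjusted p = 0.00103).

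The nonclassical heavy chains went in both directions. H2-T23 had 2.03, 2.25 and 1.54 CPM at P1, 11.4, 12.01 and 12.7 CPM at P14, and 12.8 and 10.8 CPM at P21. It was 6.06-fold higher at P14 than at P1 (adjusted p = 2.49e-07, edgeR), and P14 and P21 overlapped (log2 fold change 0.05, 95% interval -0.28 to 0.37). H2-Q4 had 3.58, 2.85 and 1.69 CPM at P1, 12.5, 10.5 and 12.1 CPM at P14, and 10.95 and 11.1 CPM at P21, which was 4.23-fold higher at P14 than at P1 (adjusted p = 1.7e-05, edgeR). H2-Q7 ran the other way, with 7.61, 6.42 and 7.99 CPM at P1, 1.31, 1.19 and 1.86 CPM at P14, and 1.37 and 1.66 CPM at P21. Every P14 and P21 library lay below every P1 library, and its log2 fold change for P14 over P1 was -2.36 ± 0.21 (adjusted p = 4.21e-06, edgeR).

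The light chain and all 3 transport and loading genes were higher at P14 than at P1. B2m had 17.8, 19.7 and 17.1 CPM at P1, 71.3, 64.1 and 69.9 CPM at P14, and 61.0 and 53.9 CPM at P21. It was 3.67-fold higher at P14 than at P1 (adjusted p = 2.95e-08, edgeR), and P21 over P14 was -0.18 on the log2 scale (95% interval -0.36 to 0.00, adjusted p = 0.122). Tap1 had 5.37, 7.01 and 5.87 CPM at P1, 17.995, 20.5 and 20.6 CPM at P14, and 18.4 and 17.6 CPM at P21, and was 3.16-fold higher at P14 than at P1 (adjusted p = 7.47e-07). Tap2 had 5.37, 5.45 and 3.31 CPM at P1, 34.5, 36.3 and 37.99 CPM at P14, and 38.1 and 41.0 CPM at P21. Its 7.54-fold difference was the largest of the 10 for P14 over P1 (adjusted p = 1.46e-07, edgeR), and its later change was not called (log2 fold change 0.20, 95% interval -0.14 to 0.54). Tapbp had 34.9, 36.0 and 32.8 CPM at P1, 91.6, 83.4 and 98.8 CPM at P14, and 106 and 108 CPM at P21. It was higher at both steps, by 1.37 ± 0.07 on the log2 scale for P14 over P1 (adjusted p = 1.14e-07, edgeR) and by 0.30 ± 0.08 for P21 over P14 (adjusted p = 0.0131).

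Nlrc5 was low throughout development, with 1.49, 1.60 and 0.349 CPM at P1, 1.99, 3.27 and 1.96 CPM at P14, and 4.26 and 4.93 CPM at P21. The stages did not overlap, but each single step was not called (log2 fold change 1.03 ± 0.45, adjusted p = 0.0659 for P14 over P1, and 1.02 ± 0.45, adjusted p = 0.111 for P21 over P14, edgeR). P21 over P1 was called, at 2.05 ± 0.47 on the log2 scale (adjusted p = 0.00336, edgeR). P1 replicate 3 was the lowest P1 library for 8 of the 10 members, all but H2-Q7 and Tap1, and its share of Müller glia markers was 0.196%, against 0.513% and 0.550% in the other P1 libraries. Without it P14 over P1 still gave 7 members higher and 1 lower, with H2-K1 at 2.09 and Nlrc5 at 0.59 on the log2 scale.

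The 3 calls for P21 over P14 were small, with none at a log2 fold change of 1, and depended on single libraries. Leaving out any 1 of the P14 or P21 libraries left 1 call, which was Tapbp in 4 cases and H2-D1 without P21 replicate 2. H2-K1 was lost in all 5 cases, while its log2 fold change stayed between 0.74 and 0.77. Without P1 replicate 3, which also enters the spread of this fit, 4 members were called, the fourth being Nlrc5 (adjusted p = 0.0077, edgeR).

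Markers of other cells changed over the same stages. RGC markers (13 genes) took 0.861% to 0.949% of counts at P1, 0.122% to 0.139% at P14 and 0.0382% to 0.0736% at P21. Microglia and macrophage markers (12 genes) took 0.00136% to 0.00295% at P1, 0.0266% to 0.0280% at P14 and 0.00691% to 0.00789% at P21. Endothelial markers (10 genes) took 0.0142% to 0.0277% at P1, 0.149% to 0.158% at P14 and 0.182% to 0.184% at P21, and Müller glia markers (8 genes) took 0.196% to 0.550% at P1, 2.01% to 2.13% at P14 and 3.78% to 3.99% at P21. All 12 microglial, 10 endothelial, 8 Müller glia, 6 pericyte and 10 rod markers were called higher at P14 than at P1, and 11 of 13 RGC markers lower. At P21, 11 of 12 microglial, 7 of 10 endothelial, 6 of 6 pericyte, 9 of 10 rod and 8 of 13 RGC markers were lower than at P14. Of the Müller glia markers 5 of 8 were higher. No class I member was called lower by edgeR with TMM scaling at that step, although both P21 libraries lay below every P14 library for B2m, which was called lower when no scaling was applied (adjusted p = 0.0473, edgeR). The part of these cell types in the class I values was not tested.

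**Figure D3:**
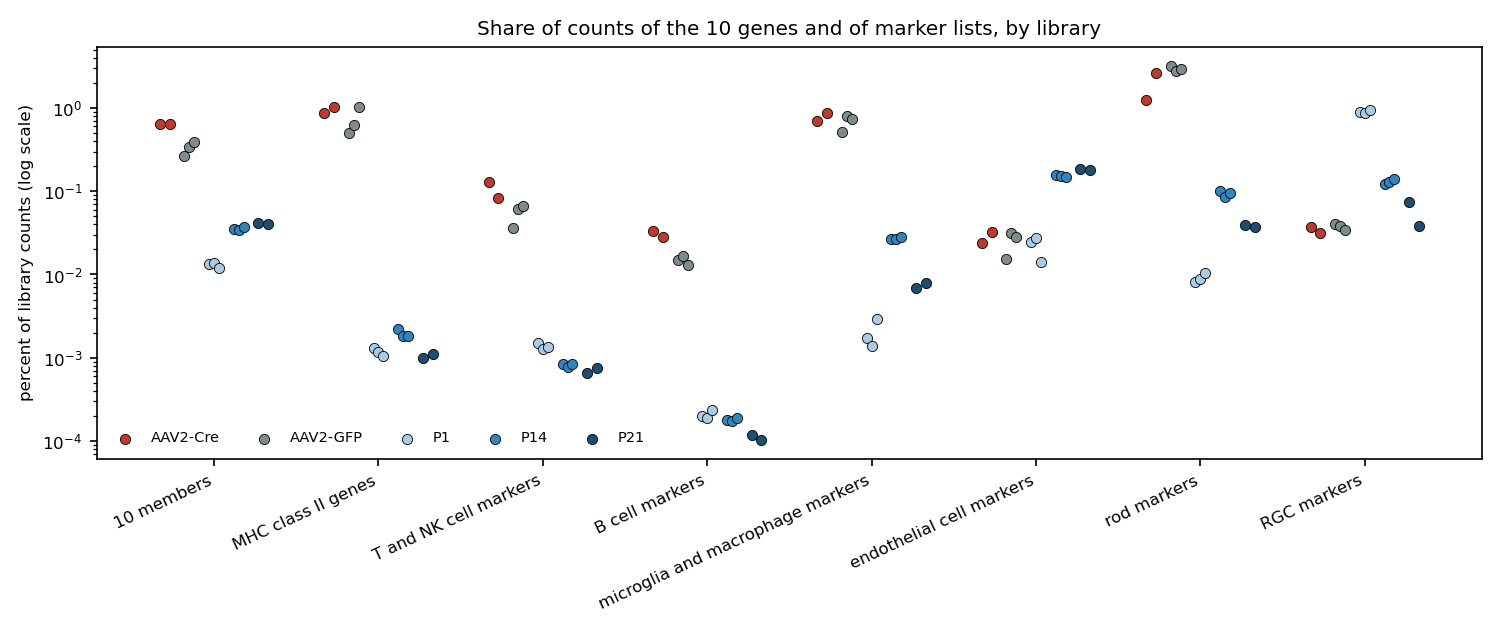
Share of library counts taken by the 10 genes and by lists of marker genes, in percent (log axis), each point being 1 library and the groups set side by side. The 10 genes took 0.641% to 0.646% in AAV2-Cre, 0.265% to 0.394% in AAV2-GFP, and 0.0118% to 0.0410% over the P1, P14 and P21 libraries.

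The makeup of class I heavy chain RNA differed by stage. It is given as the percent each gene took of the summed level per kb of exon of 18 heavy chain genes. Exon length counts every exon base of a gene, 2938 for H2-K1 and 2579 for H2-D1. Their longest transcripts have 1874 and 2102 bases. The order of H2-K1 and H2-D1 at P14, where their levels were close, therefore depends on the length used. At P1 H2-D1 made up 50.9% ± 1.74 and H2-K1 8.69% ± 2.93 (SD, n = 3). At P14 H2-D1 made up 38.1% ± 0.98 and H2-K1 31.6% ± 0.34 (SD, n = 3), and at P21 the order was turned, with H2-K1 at 41.5% ± 1.54 and H2-D1 at 34.1% ± 1.43 (SD, n = 2). The ratio of H2-K1 to H2-D1 in CPM was 0.230, 0.244 and 0.115 in P1 libraries, 0.935 to 0.969 in P14 libraries, and 1.31 and 1.47 in P21 libraries. In injured adults it was 2.12 and 1.46 in AAV2-Cre libraries and 1.54 to 1.64 in AAV2-GFP libraries, so the AAV2-Cre libraries lay on either side of the AAV2-GFP libraries.

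Other heavy chains differed in share as well, and since the MHC haplotype of the mice is not given, these percentages are not firmly comparable between the injured adult and development datasets. H2-M5, a heavy chain of the M region, made up 16.3% ± 1.10 at P1, 1.31% ± 0.45 at P14 and 0.883% ± 0.27 at P21, and between 0.00182% and 0.0397% in any injured adult library. H2-Q6, a close neighbour of H2-Q7, made up 14.2% ± 4.62 in AAV2-Cre and 12.02% ± 0.71 in AAV2-GFP, against 0.386% to 2.12% in development libraries. H2-Q4 made up 0.102% to 0.254% in injured adult libraries, against 1.76% to 8.17% in development libraries. The ratio of B2m to the summed heavy chains, both per kb of exon, was 1.04 and 1.46 in AAV2-Cre and 1.21 to 1.43 in AAV2-GFP libraries. It was 0.496 to 0.554 at P1, 1.26 to 1.41 at P14, and 0.933 and 0.893 at P21, with no overlap between the 3 stages.

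**Figure D4:**
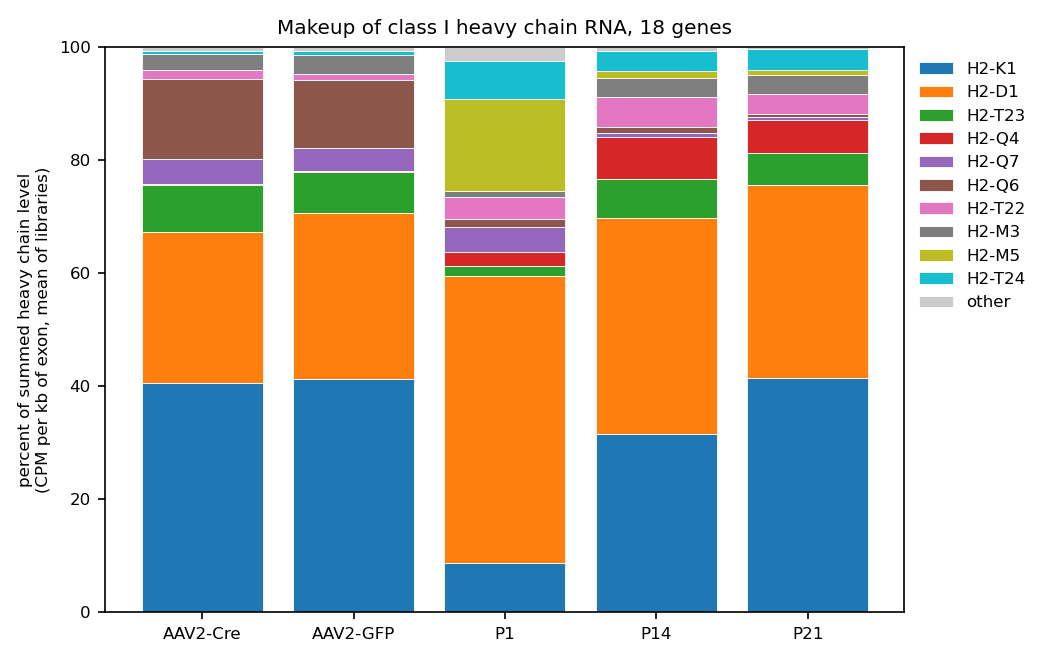
Makeup of class I heavy chain RNA in the 5 groups, as the percent of the summed level (CPM per kb of exon, mean of libraries) of 18 heavy chain genes. H2-D1 led at P1 with 50.9%, and H2-K1 led at P21 with 41.5%, in AAV2-Cre with 40.6% and in AAV2-GFP with 41.2%.

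Injured adult libraries held far more class I RNA than development libraries, a difference that was not tested, and in which injury, virus, genotype, strain, age, dataset and the cells sorted cannot be told apart. Class I heavy chain genes are highly polymorphic, and reads of a haplotype unlike the reference can be lost or assigned to a paralog, so a strain difference between the datasets, if there was one, would change these values. All 5 injured adult libraries lay above all 8 development libraries in 9 of the 10 genes, against 22% of 23844 genes. Mean CPM in AAV2-GFP over mean CPM at P21 was 8.55 for H2-K1, 7.43 for H2-D1, 11.3 for H2-T23, 12.25 for B2m, 7.68 for Tap1, 2.61 for Tap2, 5.72 for Tapbp and 12.7 for Nlrc5. H2-Q7 stood apart with a ratio of 72.02, which rests on a low P21 mean of 1.52 CPM (106 counts in all). Its mean was 7.34 CPM at P1 and 109 CPM in AAV2-GFP. H2-Q4 was the exception to the direction, with a ratio of 0.296. Markers of immune cells moved with these levels, since class II genes took 0.881% to 1.03% of counts in AAV2-Cre and 0.495% to 1.02% in AAV2-GFP libraries, against 0.000986% to 0.00222% in development libraries.

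Other genes of the class I pathway were 66 genes in 9 lists. In AAV2-Cre over AAV2-GFP, 59 were tested, 12 were called higher and 0 lower by edgeR, where 1.33% of all genes were higher and 0.294% lower, and DESeq2 and limma-voom called 0 lower as well, with 29 genes at an unadjusted p under 0.05. Their median log2 fold change was 0.54, against 0.99 for the 10 members. The immunoproteasome list holds subunits that replace others under interferon (Psmb8, Psmb9 and Psmb10) and the proteasome activator genes Psme1 and Psme2. Of its 5 genes 3 were higher, Psmb10 at 1.33 (adjusted p = 0.0187, edgeR), Psmb9 at 1.23 (0.0208) and Psme2 at 0.99 (0.0387). None of the 6 genes listed as constitutive proteasome, among them the activator gene Psme3, was called by edgeR, DESeq2 or limma-voom. Their log2 fold changes lay between -0.10 and 0.44, with 2 at an unadjusted p under 0.05. Of 15 regulators of class I transcription, 5 were higher, all interferon pathway factors. Irf1, a direct activator of class I promoters, averaged 331 ± 45.9 CPM in AAV2-Cre and 117 ± 41.7 CPM in AAV2-GFP (SD, n = 2 and 3; adjusted p = 0.0348, edgeR). Irf8, a myeloid interferon regulatory factor, averaged 618 ± 19.3 CPM in AAV2-Cre and 270.1 ± 17.4 CPM in AAV2-GFP (adjusted p = 0.00992, edgeR). Stat2 and Irf9, which act in type I interferon signalling, had log2 fold changes of 1.07 (adjusted p = 0.0269, edgeR) and 1.28 (0.00698). In these 4 genes, all among those called, the arms did not overlap. Of all genes tested, 19.8% had both AAV2-Cre libraries above every AAV2-GFP library. The factors of the SXY module (Rfx5, Rfxank, Rfxap, Nfya, Nfyb and Nfyc) lay between -0.58 and 0.42 on the log2 scale and none was called. Tapbpl, a tapasin relative that edits class I peptides, was higher at 1.21 (adjusted p = 0.0328, edgeR), as were the heavy chains H2-Q6 at 1.35 (0.0394) and H2-T22 at 1.51 (0.0275).

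For P14 over P1, 27 of the 54 pathway genes tested were higher and 18 lower, where 33.6% of all genes were higher and 33.6% lower, so the share that was lower was near that of all genes. Most lists held genes of both directions. Class I-like molecules were higher in 5 of 5, with Fcgrt, the neonatal Fc receptor, at 58.9 ± 3.78 CPM at P14 and 6.06 ± 0.57 CPM at P1, and Mr1, which presents microbial vitamin metabolites, at 23.98 ± 1.25 CPM at P14 and 3.37 ± 0.62 CPM at P1 (SD, n = 3 each). The 6 constitutive proteasome genes were lower in 6 of 6, by at most 0.48 on the log2 scale. Of the immunoproteasome list, Psmb8 at 2.47 (adjusted p = 3.38e-05, edgeR) and Psmb9 at 2.204 (1.72e-05) were higher and the activator gene Psme1 at -0.36 (0.00043) was lower. Among regulators 10 of 15 were higher and 4 lower, with Irf8 at 2.84 and Irf1 at 2.78 the largest, and Stat2 at -0.66 among those lower. Erap1, the peptidase that trims peptides in the endoplasmic reticulum, was higher at 1.64 (adjusted p = 8.94e-07, edgeR). Of the other heavy chains 2 were higher (H2-M3 and H2-T22) and 4 lower (H2-M5, H2-Q2, H2-T24 and H2-Bl), with H2-M5 at 2.12 ± 0.75 CPM at P14 and 17.5 ± 0.22 CPM at P1. For P21 over P14, 7 of 54 were higher and 9 lower, no larger a share than the 14.6% higher and 19.3% lower of all genes, and none of the 5 immunoproteasome genes was called by edgeR, with 1 at an unadjusted p under 0.05, while DESeq2 called 1 lower and limma-voom 1 higher and 1 lower. For P21 over P1, 27 of 54 were higher and 17 lower, beside 34.1% and 33.6% of all genes.

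**Figure D5:**
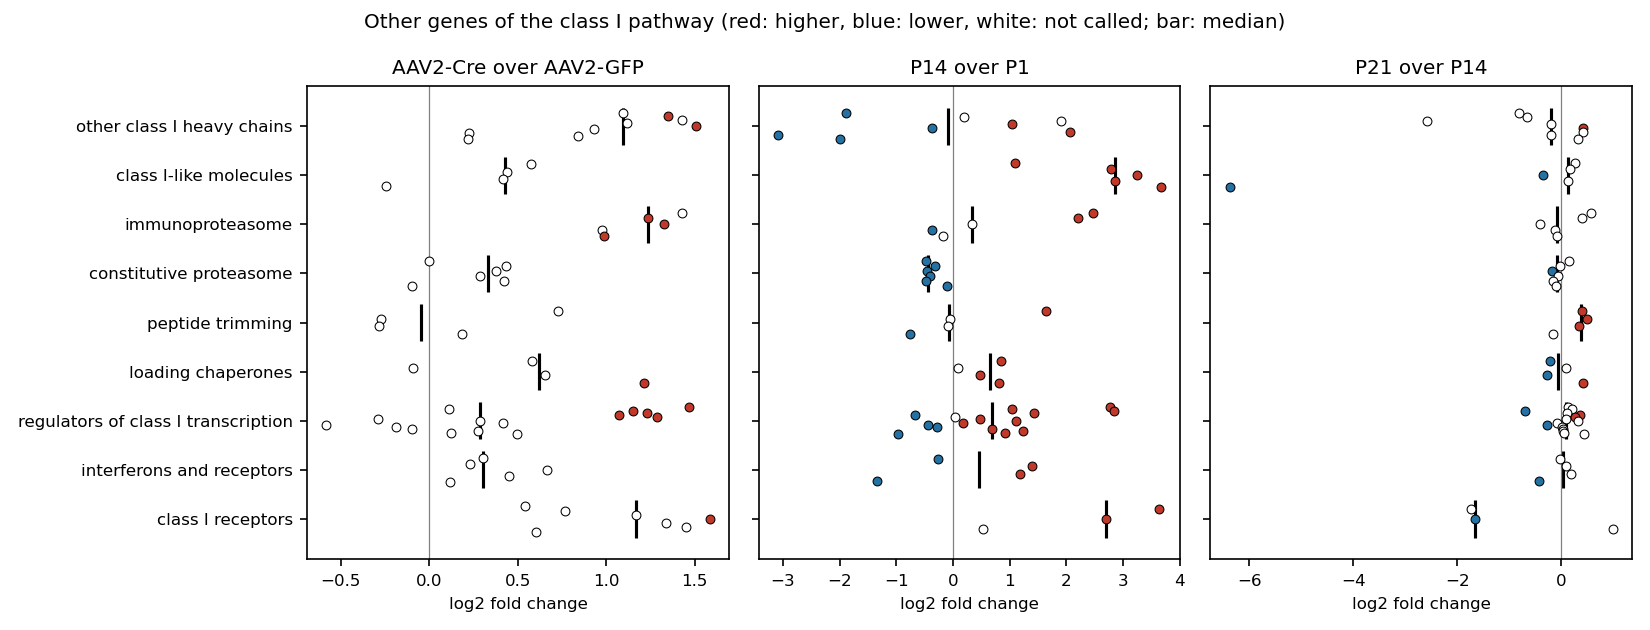
Log2 fold change of the other class I pathway genes in 9 lists, for 3 comparisons. Each point is a gene (red called higher, blue called lower, white not called) and the bar is the median of the list. In AAV2-Cre over AAV2-GFP all 12 calls were higher, and in P14 over P1 the 6 constitutive proteasome genes were all lower while 5 class I-like genes were all higher.

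The genes whose pattern over the 5 groups was most like the mean of the 10 were sought by Euclidean distance between centred group means, among the 11128 genes whose log2 CPM averaged 3 or more. Sdf2l1, a chaperone partner of the endoplasmic reticulum, was nearest (0.449), then Rel, an NF-κB subunit (0.457), Asb2 (0.482), Fermt3, an integrin adaptor of blood cells (0.492), and Serpinb9, an inhibitor of granzyme B (0.517). The distances describe 5 group means only. Among the members the distance ran from 0.344 for Tapbp to 5.11 for H2-Q4.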

How the data were processed

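RNA-seq reads were trimmed by the authors with Trimmomatic 0.39, checked with FastQC 0.11.9, aligned to GRCm38 with HISAT2 2.2.1 and assigned to genes by featureCounts (Subread 2.0.3). The authors deposited raw counts for 52550 genes in 13 libraries, with no normalization. Symbols were matched by Ensembl ID for 52403 genes.

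The 5 knockout and 8 development libraries were fitted separately in R 4.3.3 with edgeR 4.0.16 (TMM, filterByExpr, glmQLFit and glmQLFTest, two-sided), after the fits had been tested on simulated data. The biological coefficient of variation was 0.340 and 0.109. CPM were scaled by TMM over all 13 libraries. Exon lengths came from GENCODE M21 and promoters from RefSeq (GRCm38.p6).

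The members and gene lists were chosen with earlier results of these data known. Genes named were the members, genes of the lists, and the 5 nearest profiles. Values of some single list genes are not reported here. Alternatives were DESeq2 1.42.0, limma-voom (limma 3.58.1), DESeq2 size factors, no scaling, no filter, a minimum of 10 counts per library, a joint fit of all 13 libraries, a log2 fold change limit of 1, a replicate block, and each library left out. With 1 AAV2-Cre library left out, the other was taken to have the spread of the AAV2-GFP arm. For shares of counts, an alternative left out the 100 genes with the most counts in each library.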

Additional observations from a re-analysis of the deposited data

How the results depend on the processing

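Members called higher in AAV2-Cre over AAV2-GFP numbered 3, against 8 with DESeq2, 7 with limma-voom, 9 without the low-count filter, 7 with at least 10 counts in every library, 8 with all 13 libraries in 1 fit, 7 with a replicate block and 0 to 6 with each replicate left out. All genes called higher and lower numbered 244 and 54, against 798 and 528 with DESeq2, 360 and 96 with limma-voom, 969 and 543 without the filter, 378 and 152 with at least 10 counts, 1433 and 1071 with all 13 libraries in 1 fit, 232 and 23 with the block, and 5 to 253 and 0 to 31 with each replicate left out. Other pathway genes called higher numbered 12, against 24, 23 and 26 with DESeq2, no filter and all 13 libraries.

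For P21 over P14, members called higher numbered 3, against 0 with a log2 fold change limit of 1, 0 with all 13 libraries in 1 fit, 1 with the replicate block, 2 with DESeq2 and with no scaling, and 1 to 4 with each replicate left out. Members called lower numbered 0, against 1 (B2m) with no scaling. Uncalled log2 fold changes turned sign in 7 cases. H2-T23 was -0.015 with no scaling, -0.010 with all 13 libraries, and -0.073 to 0.137 with each replicate left out. The log2 fold change of H2-Q4, P21 over P14, was -0.0839 to 0.044 and that of H2-Q7 was -0.044 to 0.346 with each replicate left out. All genes split 3047 higher to 4024 lower, against 2326 to 4722 with no scaling, 627 to 1997 with all 13 libraries and 2049 to 3206 with the block. Other pathway genes called higher numbered 7, against 11 with limma-voom and 0 with the fold limit or all 13 libraries, and those lower 9, against 2 with the limit, 5 with all 13 and 4 with the block. For P14 over P1 the pathway genes called lower numbered 18, against 4 with the limit and 9 with all 13 libraries. With no scaling the median of all genes for P14 over P1 was 0.11, against -0.01, that of the members 1.90, against 1.77, and H2-D1 was called. The causes were not tested.

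Replicate numbers gave no sign of pairing between libraries. In groups of 2 libraries the deviations mirror each other, so this check has little power and cannot show that pairing was absent. Deviations of libraries with the same number correlated at -0.034 to -0.032 over 2 pairs in the knockout dataset and at -0.138 to 0.042 over 7 pairs in development, and the best match was to the library's own number in 0 of 5 and 2 of 8 libraries. With 2 or 3 libraries a group and a coefficient of variation of 0.340, 2-fold changes in the knockout dataset lay near the edge of what was called. Depth limits mainly H2-Q4 in the injured adults, Nlrc5 at P1, and H2-Q7 at P14 and P21, which had sums of 156 and 106 counts over the libraries of those stages.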

Other observations

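Genes on the receiving side of class I molecules gave values not described above. Klrd1, which encodes the CD94 chain that binds the H2-T23 product, averaged 30.5 ± 5.44 CPM in AAV2-Cre and 9.88 ± 1.69 CPM in AAV2-GFP (SD, n = 2 and 3), with a log2 fold change of 1.58 (adjusted p = 0.0245, edgeR). It was the 1 gene called by edgeR of 7 class I receptors, of which DESeq2 called 4 and limma-voom 3 higher. All 7 had a fold change above 1 and 6 an unadjusted p under 0.05. Cd8a, the coreceptor of cytotoxic T cells, averaged 46.8 ± 14.6 CPM in AAV2-Cre and 26.7 ± 6.32 CPM in AAV2-GFP (adjusted p = 0.209, edgeR). Pirb, a myeloid and neuronal receptor for class I molecules, averaged 59.8 ± 12.8 CPM in AAV2-Cre and 39.9 ± 6.36 CPM in AAV2-GFP (adjusted p = 0.238, edgeR). Its mean was 0.041 CPM in P1, 0.555 CPM in P14 and 0.157 CPM in P21 libraries. Ifng, the gene of interferon-γ, averaged 11.7 ± 4.96 CPM in AAV2-Cre and 9.19 ± 6.80 CPM in AAV2-GFP, and its log2 fold change of 0.30 was not called (adjusted p = 0.85, edgeR).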
